A study of Mus musculus with 23 samples.

Results

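The 6 genes that carry cholesterol into androgen were followed through mouse testis maturation and through organotypic culture, as 6 of the 27466 genes in the count table: Star, Cyp11a1, Hsd3b1, Hsd3b6, Cyp17a1 and Hsd17b3. They were chosen as the enzymes and the cholesterol carrier of androgen synthesis in Leydig cells, with earlier results of these data known. All 6 passed the filter on low counts. Leydig cells lie between the seminiferous tubules and make testosterone under luteinizing hormone (LH). STAR moves cholesterol to the inner mitochondrial membrane, CYP11A1 cuts its side chain to give pregnenolone, and 3-beta-hydroxysteroid dehydrogenases, CYP17A1 and HSD17B3 then turn it into testosterone. Fetal Leydig cells are replaced around puberty by an adult population, and in the fetal testis HSD17B3 is supplied by Sertoli cells rather than by Leydig cells.

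The material was whole testis of wild-type CD-1 mice, taken in vivo at 4 ages in days postpartum (6.5 dpp, 10.5 dpp, 22.5 dpp or 36.5 dpp), and explants of 6.5 dpp testes kept in vitro for 4, 16 or 30 days (D4, D16, D30). Explants grew at a gas-liquid interphase in α-MEM with KnockOut serum replacement, gentamicin and retinol, and their necrotic centre was removed before RNA extraction. Samples were fresh, except for controlled slow frozen (CSF) testes at 6.5 dpp and 1 D30 library from CSF tissue, which were pooled with the fresh libraries of their stage. No group carried a transgene, a deletion or an added hormone by its labels. D4 matches 10.5 dpp in age, D16 matches 22.5 dpp and D30 matches 36.5 dpp, and each culture stage was set against its age-matched testis.

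The groups held 4 libraries for 6.5 dpp and for D30, 3 for 10.5 dpp, 22.5 dpp and D4, and 2 for 36.5 dpp and D16, with 28351546 to 69029328 counts per library. Of 2 further libraries labelled 6.5 dpp fresh, replicate 3 was an exact copy of replicate 2 and was counted once. Replicate 1 was left out because its profile went against its label, with a Spearman correlation across genes of 0.928 with replicate 2 and 0.985 with a D16 library. The submitters call the samples biological replicates, but nothing ties them to separate animals, so p-values measure the spread between these samples. By the paper's methods, each cultured replicate pooled several explants, so the spread in culture is between pools and not between single explants. The tests used a shared fit for these pools and for whole testes. In RNA from whole tissue, fewer Leydig cells and less RNA per Leydig cell cannot be told apart. Levels are a gene's counts scaled to the total counts of its library (CPM, so that each library sums to the same total). Differences are log2 fold changes between groups from edgeR, which rescales libraries by the trimmed mean of M-values (TMM), with the standard error (SE) after each. A gene was called where its Benjamini-Hochberg adjusted p over 19255 genes was under 0.05. A stricter rule asked for at least 2 log2 units and an adjusted p of at most 0.001.

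Star (Entrez 20845, GRCm38.p6 chromosome 8, 25808474 to 25815982, plus strand) encodes the carrier that delivers cholesterol to the mitochondrion. In vivo, Star read 102.0 CPM in the fresh library and 80.7, 86.7 and 136.4 CPM in the 3 CSF libraries at 6.5 dpp, 111.0, 84.8 and 102.8 CPM at 10.5 dpp, 85.6, 57.2 and 94.1 CPM at 22.5 dpp, and 104.8 and 115.1 CPM at 36.5 dpp. The in vivo ages thus overlapped, apart from 36.5 dpp, which lay above 22.5 dpp. In vitro, Star read 42.5, 44.3 and 35.6 CPM at D4, 34.9 and 52.2 CPM at D16, 99.9, 81.1 and 122.7 CPM in the 3 fresh D30 libraries and 102.2 CPM in the CSF library. All 5 D4 and D16 libraries lay below every in vivo library, and all 4 D30 libraries lay within the in vivo range. From highest to lowest, stage means were 110 ± 7.26 CPM at 36.5 dpp (SD, n = 2), 101 ± 17.0 at D30 (n = 4), 101 ± 25.0 at 6.5 dpp (n = 4), 99.5 ± 13.4 at 10.5 dpp (n = 3), 79.0 ± 19.3 at 22.5 dpp (n = 3), 43.5 ± 12.2 at D16 (n = 2) and 40.8 ± 4.62 at D4 (n = 3). Only 22.5 dpp and D16 did not overlap among neighbours in that order.

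Cyp11a1 (Entrez 13070, chromosome 9, 57998024 to 58027031, plus strand) encodes the side-chain cleavage enzyme, which commits cholesterol to steroid synthesis. Its annotated span holds Gm17322 on the same strand, which was not analysed here. In vivo, Cyp11a1 read 186.2 CPM in the fresh library and 110.8, 162.9 and 161.3 CPM in the CSF libraries at 6.5 dpp, 174.7, 245.1 and 191.9 CPM at 10.5 dpp, 303.1, 254.7 and 303.7 CPM at 22.5 dpp, and 475.9 and 376.1 CPM at 36.5 dpp. Levels at 22.5 dpp and 36.5 dpp each stood clear of the younger ages. In vitro, Cyp11a1 read 67.7, 132.0 and 139.0 CPM at D4, 47.1 and 61.1 CPM at D16, and 57.4, 62.5 and 150.5 CPM in the fresh and 54.9 CPM in the CSF library at D30. One fresh D30 library, replicate 3, lay far above the other D30 libraries. Stage means were 426 ± 70.6 CPM at 36.5 dpp, 287 ± 28.1 at 22.5 dpp, 204 ± 36.7 at 10.5 dpp, 155 ± 31.8 at 6.5 dpp, then 113 ± 39.3 at D4, 81.3 ± 46.2 at D30 and 54.1 ± 9.86 at D16. Libraries overlapped between neighbours in this order from 10.5 dpp downwards.

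Hsd3b1 (Entrez 15492, chromosome 3, 98842356 to 98859794, minus strand) and Hsd3b6 (Entrez 15497, chromosome 3, 98805504 to 98814443, minus strand) encode 3-beta-hydroxysteroid dehydrogenases, which convert pregnenolone to progesterone. The genes lie 27912 bases apart. Their coding sequences had the same length and shared 1007 of 1119 bases (89.99%), with a longest identical run of 72 bases, so the separation of their counts rests on short differences. The 60 coding bases at which they differed most, bases 94 to 153 counted from the start codon, are given with the 15 differing bases in capitals. They span exons 3 and 4 of 5 in Hsd3b1 (GRCm38, chr3:98856151-98857871, minus strand, intron included) and exons 2 and 3 of 4 in Hsd3b6 (chr3:98807922-98810953, minus strand, intron included).
Hsd3b1: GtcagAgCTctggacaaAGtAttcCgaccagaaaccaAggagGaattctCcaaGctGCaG
Hsd3b6: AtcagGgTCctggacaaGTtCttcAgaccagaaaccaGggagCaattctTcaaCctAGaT
Of all 50-base windows along the transcript, the length of the reads, 4.983% of Hsd3b1 and 16.14% of Hsd3b6 also occurred in another gene, against none for Star, Cyp11a1, Cyp17a1 and Hsd17b3. Reads from those windows may have been dropped or split by the counting, so the levels of both are uncertain to that extent. Of the closest other paralogs, Hsd3b2 reached at most 2.35 CPM in any library.

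Because the pair of neighbours moved in opposite directions from 10.5 to 22.5 dpp, the 140 bases before each RefSeq start are shown (GRCm38.p6, minus strand, chr3:98859795-98859934 for Hsd3b1 and chr3:98814444-98814583 for Hsd3b6). Capitals mark AGATAA on either strand, a letter form bound by GATA factors.
Hsd3b1 promoter: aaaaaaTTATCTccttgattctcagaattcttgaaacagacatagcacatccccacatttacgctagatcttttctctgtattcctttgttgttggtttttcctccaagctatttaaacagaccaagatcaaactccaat
Hsd3b6 promoter: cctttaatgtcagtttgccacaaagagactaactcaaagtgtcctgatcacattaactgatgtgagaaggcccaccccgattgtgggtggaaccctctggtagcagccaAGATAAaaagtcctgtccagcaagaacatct
The match lay at bases -134 to -129 in Hsd3b1, on the opposite strand, and at bases -31 to -26 in Hsd3b6. Both strands of the 250 bases before the start were searched. AGATAA occurred in 9.988% of 32851 such windows. The other GATA form TGATAA occurred in 7.942%, the TATA box letters TATAAA in 12.37%, the nuclear receptor letters AGGTCA in 14.02%, and the longer form CAAGGTCA, which contains them, in 1.333%. Windows were at hand for 4 of the 6 genes. The only other match was AGGTCA at -28 to -23 in 1 of the 2 Cyp11a1 windows, and none was found in the Hsd17b3 window. Star and Cyp17a1 had no window.

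In vivo, Hsd3b1 read 351.6 CPM in the fresh library and 243.0, 405.3 and 370.2 CPM in the CSF libraries at 6.5 dpp, 362.4, 430.5 and 355.3 CPM at 10.5 dpp, 168.2, 240.0 and 183.0 CPM at 22.5 dpp, and 254.7 and 175.0 CPM at 36.5 dpp. All 3 libraries at 22.5 dpp lay below all at 6.5 and 10.5 dpp. In vitro, Hsd3b1 read 168.2, 284.1 and 315.9 CPM at D4, 113.4 and 107.1 CPM at D16, and 127.0, 191.0 and 241.8 CPM in the fresh and 188.8 CPM in the CSF library at D30. D16 was the lowest stage and D4 and D30 overlapped several in vivo ages. Stage means were 383 ± 41.5 CPM at 10.5 dpp, 343 ± 70.0 at 6.5 dpp, 256 ± 77.7 at D4, 215 ± 56.4 at 36.5 dpp, 197 ± 37.9 at 22.5 dpp, 187 ± 47.0 at D30 and 110 ± 4.41 at D16. Each stage overlapped the next in this order except D30 and D16. The order depended on the scaling: on TMM-adjusted library sizes, Hsd3b1 had means of 336 ± 38.7 at 10.5 dpp and 328 ± 80.6 at 36.5 dpp.

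Hsd3b6, known as the form of adult Leydig cells, was near the detection limit in the young testis, with 9 counts in the fresh library and 6, 4 and 4 counts in the CSF libraries at 6.5 dpp. In vivo, Hsd3b6 read 0.188, 0.125, 0.0973 and 0.141 CPM in the same libraries, 0.606, 1.47 and 0.673 CPM at 10.5 dpp, 111.6, 153.4 and 123.6 CPM at 22.5 dpp, and 89.0 and 65.8 CPM at 36.5 dpp. In CPM, no pair of ages overlapped, and the highest levels were those of 22.5 dpp. On TMM-adjusted library sizes, the means were 139 ± 12.1 at 22.5 dpp and 118 ± 23.1 at 36.5 dpp, within their spread. The step between these ages was not called by edgeR (adjusted p = 0.722). In vitro, Hsd3b6 read 3.41, 5.87 and 5.36 CPM at D4, 10.2 and 27.9 CPM at D16, and 8.38, 7.96 and 26.6 CPM in the fresh and 6.45 CPM in the CSF library at D30. Every cultured library thus lay above all libraries of 6.5 and 10.5 dpp and below all of 22.5 and 36.5 dpp. Stage means were 130 ± 21.5 CPM at 22.5 dpp, 77.4 ± 16.4 at 36.5 dpp, 19.1 ± 12.5 at D16, 12.3 ± 9.54 at D30, 4.88 ± 1.30 at D4, 0.918 ± 0.483 at 10.5 dpp and 0.138 ± 0.0380 at 6.5 dpp, and only D16 and D30 overlapped among neighbours.

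Cyp17a1 (Entrez 13074, chromosome 19, 46667165 to 46673000, minus strand) encodes the 17-hydroxylase and lyase that turns progesterone into androstenedione. In vivo, Cyp17a1 read 126.8 CPM in the fresh library and 156.6, 160.2 and 240.8 CPM in the CSF libraries at 6.5 dpp, 333.6, 376.5 and 340.5 CPM at 10.5 dpp, 348.0, 262.3 and 320.3 CPM at 22.5 dpp, and 915.9 and 726.1 CPM at 36.5 dpp. Libraries of 36.5 dpp stood highest and those of 6.5 dpp lowest in vivo. In vitro, Cyp17a1 read 10.8, 14.3 and 18.0 CPM at D4, 15.0 and 12.9 CPM at D16, and 28.4, 32.3 and 50.4 CPM in the fresh and 25.3 CPM in the CSF library at D30. The highest cultured library lay below the lowest in vivo library. Stage means were 821 ± 134 CPM at 36.5 dpp, 350 ± 23.0 at 10.5 dpp, 310 ± 43.7 at 22.5 dpp, 171 ± 48.8 at 6.5 dpp, 34.1 ± 11.3 at D30, 14.4 ± 3.58 at D4 and 13.9 ± 1.44 at D16. Neighbours overlapped at 10.5 and 22.5 dpp and at D4 and D16.

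Hsd17b3 (Entrez 15487, chromosome 13, 64058274 to 64089262, minus strand) encodes the enzyme that reduces androstenedione to testosterone. In vivo, Hsd17b3 read 109.4 CPM in the fresh library and 125.1, 186.2 and 231.1 CPM in the CSF libraries at 6.5 dpp, 68.1, 51.4 and 68.1 CPM at 10.5 dpp, 10.9, 13.2 and 10.1 CPM at 22.5 dpp, and 91.3 and 50.8 CPM at 36.5 dpp. The gene was lowest at 22.5 dpp in vivo, with no overlap with the other ages, and in CPM its 36.5 dpp libraries spanned those of 10.5 dpp. On TMM-adjusted library sizes, its mean was higher at 36.5 dpp (108 ± 41.9) than at 10.5 dpp (54.9 ± 8.20). In vitro, Hsd17b3 read 19.6, 20.5 and 18.6 CPM at D4, 7.29 and 7.45 CPM at D16, and 2.54, 4.08 and 3.65 CPM in the fresh and 5.75 CPM in the CSF library at D30. The 3 culture stages did not overlap in CPM, and D30 was the lowest of all stages, but the step from D16 to D30 was not called by edgeR (adjusted p = 0.225). Stage means were 163 ± 56.2 CPM at 6.5 dpp, 71.0 ± 28.6 at 36.5 dpp, 62.6 ± 9.65 at 10.5 dpp, then 19.6 ± 0.931 at D4, 11.4 ± 1.60 at 22.5 dpp, 7.37 ± 0.114 at D16 and 4.00 ± 1.33 at D30.

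**Figure D1:**
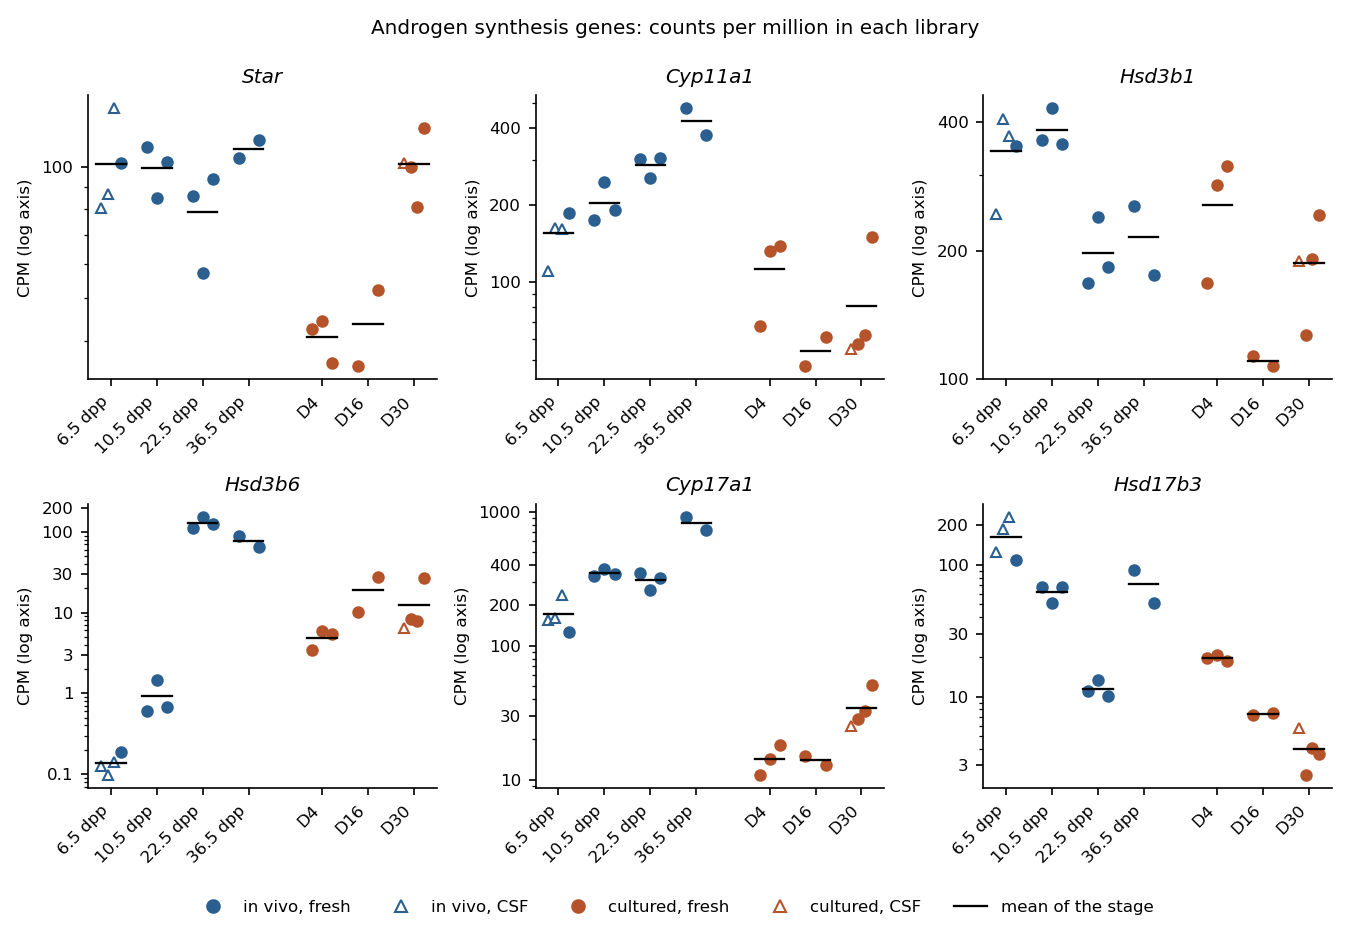
Level of each of the 6 genes in every library (CPM, log axis) by stage, in vivo ages on the left and culture days on the right of each panel; points are libraries, with fresh and CSF marked apart, and bars are stage means. Cyp17a1 in culture lay below every in vivo library, whereas Star at D30 lay within the in vivo range.

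Per kilobase of annotated exon, which allows levels to be set side by side between genes, Hsd3b1 ranked first at 6.5 dpp (185 ± 37.7 CPM per kb, n = 4) and at 10.5 dpp (206 ± 22.4, n = 3). Cyp11a1 ranked first at 22.5 dpp (135 ± 13.3, n = 3), next to Cyp17a1 with 128 ± 18.1, a difference within their spread. The joined exons of Cyp17a1 measured 2418 bases, but its transcript with the longest coding sequence measured 1815 bases. Its level per kb therefore depends on the length used, and its order against Cyp11a1 at this age is not settled. At 36.5 dpp Cyp17a1 ranked first (340 ± 55.5, n = 2). In culture Hsd3b1 ranked first at D4, D16 and D30, and Cyp17a1 had rank 5 at D4 and D16 and rank 4 at D30. Together the 6 genes took 933 ± 180 CPM at 6.5 dpp, 1100 ± 78.1 at 10.5 dpp, 1014 ± 29.2 at 22.5 dpp and 1720 ± 299 at 36.5 dpp, against 449 ± 119 at D4, 248 ± 28.8 at D16 and 420 ± 120 at D30.

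The comparisons of neighbouring ages asked how the genes moved as the testis matured, and each shares a group with the next. Between 6.5 and 10.5 dpp, 1 of the 6 genes rose and 1 fell, where 0.675% of all genes tested were called higher and 0.467% lower. Hsd3b6 rose 6.17-fold (log2 2.62, SE 0.57, edgeR adjusted p = 0.0324) from its few counts, and Hsd17b3 fell 2.76-fold (-1.47, SE 0.29, adjusted p = 0.0169). Cyp17a1 had a log2 difference of 0.95 (adjusted p = 0.0876), Cyp11a1 of 0.32, Hsd3b1 of 0.09 and Star of -0.11, none of them called. No member passed the stricter rule, which 0.0208% of genes passed. Both calls were fragile: Hsd3b6 was not called without any one of the 3 CSF or 3 10.5 dpp libraries (adjusted p 0.0521 to 0.221), and Hsd17b3 was not called without CSF replicate 2 or any one 10.5 dpp library (0.0607 to 0.147), while Cyp17a1 was called without CSF replicate 3 (log2 1.22, adjusted p = 0.0148). Cyp17a1 was also called with the replicate block (0.97, adjusted p = 0.0434), DESeq2 (0.91, adjusted p = 0.0431) and scaling by totals (1.03, adjusted p = 0.0445). Of the 4 libraries at 6.5 dpp 3 were frozen, and against the 1 fresh library alone, with the spread taken from the other groups, Hsd17b3 was at -0.84 (adjusted p = 0.886) and Hsd3b6 at 2.22, neither called. With the left-out fresh replicate 1 put back, Hsd3b6 turned to -0.42 and no member was called.

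From 10.5 to 22.5 dpp, the pair of 3-beta-hydroxysteroid dehydrogenases moved in opposite directions. Hsd3b6 rose 174-fold (log2 7.44, SE 0.59, adjusted p = 1.23e-08) and Hsd3b1 fell by 0.67 log2 units (SE 0.25, adjusted p = 0.0256). Hsd17b3 fell 4.47-fold (-2.16, SE 0.31, adjusted p = 1.18e-05) and Cyp11a1 rose by 0.80 (SE 0.34, adjusted p = 0.0469). Star (-0.02) and Cyp17a1 (0.13) were not called, and the sign of each turned with the scaling. Thus 2 rose and 2 fell, where 33.6% of all genes were called higher and 27.9% lower. Hsd3b6 and Hsd17b3 also passed the stricter rule, as did 18.4% of genes. Cyp11a1 was not called with libraries scaled by their totals alone (log2 0.49, adjusted p = 0.208), nor without 10.5 dpp replicate 1 or 3 or 22.5 dpp replicate 1 or 3 (adjusted p 0.110 to 0.135), and Hsd3b1 was not called without 10.5 dpp replicate 2 or 22.5 dpp replicate 1 or 3 (0.0690 to 0.0890).

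From 22.5 to 36.5 dpp, 4 of the 6 genes rose and none fell, where 23.3% of all genes were called higher and 27.5% lower. Hsd17b3 rose 8.84-fold (log2 3.14, SE 0.34, adjusted p = 1.66e-06) and Cyp17a1 3.73-fold (1.90, SE 0.30, adjusted p = 9.41e-05). Cyp11a1 rose by 1.07 log2 units (SE 0.37, adjusted p = 0.0224) and Star by 0.97 (SE 0.28, adjusted p = 0.00776), but with libraries scaled by their totals alone neither was called (Cyp11a1 0.57, adjusted p = 0.199, and Star 0.48, adjusted p = 0.113). Hsd3b1 (0.64, adjusted p = 0.0593) and Hsd3b6 (-0.23, adjusted p = 0.722) were not called. Only Hsd17b3 passed the stricter rule, as did 9.90% of genes. Cyp11a1 was not called without 22.5 dpp replicate 2 (adjusted p = 0.0817) or 36.5 dpp replicate 1 (0.133), and Hsd3b1 was called without 36.5 dpp replicate 2 (log2 0.88, adjusted p = 0.0382), with the replicate block (0.74, adjusted p = 0.0274), with the median-of-ratios factors (0.84, adjusted p = 0.0194) and with DESeq2 (0.84, adjusted p = 0.0136). All 5 spermatid markers rose over the same step, from a summed 9.10 to 60.0 CPM at 22.5 dpp to 16421 to 21335 CPM at 36.5 dpp, and their part in these values was not tested.

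**Figure D2:**
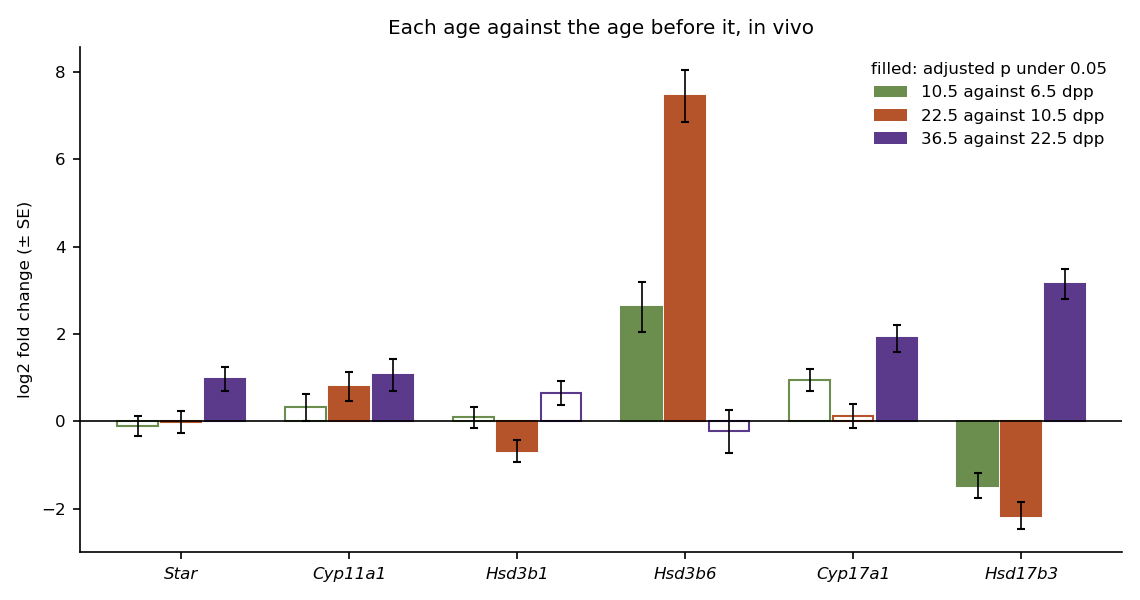
Log2 fold change of each of the 6 genes (bars from 0, with error bars of 1 SE) for the 3 steps between neighbouring in vivo ages; filled bars were called at an adjusted p under 0.05 and open bars were not. The bar of Hsd3b6 from 10.5 to 22.5 dpp reached 7.44, and Hsd17b3 lay below 0 over the earlier steps and at 3.14 from 22.5 to 36.5 dpp.

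The culture stages were set against testes of matched age to ask how far explants followed the in vivo course. At D4 against 10.5 dpp, Cyp17a1 fell 23.0-fold (log2 -4.52, SE 0.32, edgeR adjusted p = 7.34e-08), Hsd17b3 3.01-fold (-1.59, SE 0.30, adjusted p = 0.00245) and Star by 1.20 log2 units (SE 0.25, adjusted p = 0.00575). Hsd3b6 went the other way, 5.71-fold higher (2.51, SE 0.50, adjusted p = 0.00315). Cyp11a1 (-0.77, SE 0.34, adjusted p = 0.203) and Hsd3b1 (-0.50, SE 0.25, adjusted p = 0.293) were not called. In CPM, all D4 libraries lay below all 10.5 dpp libraries in both, at most 139.0 against at least 174.7 for Cyp11a1. For Hsd3b1 these were 315.9 and 355.3 CPM. In a fit of only the groups compared, Cyp11a1 was called (-0.76, adjusted p = 0.0211). So 1 member was higher and 3 were lower, where 4.92% of all genes were called higher and 3.18% lower, and the median of the members was -0.98 against -0.01 for all genes. Cyp17a1 alone passed the stricter rule, which 1.07% of genes passed. These 4 calls held without any one of the 6 libraries, but with fresh replicate 1 of 6.5 dpp put into the fit only Cyp17a1 was called. Macrophage markers moved as well, from a summed 109 to 143 CPM at 10.5 dpp to 30.6 to 35.0 CPM at D4, and their part was not tested.

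At D16 against 22.5 dpp, 5 of the 6 genes were lower and none higher, where 11.8% of all genes were called lower and 14.0% higher. Cyp17a1 fell 25.0-fold (log2 -4.64, SE 0.38, adjusted p = 6.56e-07), Hsd3b6 7.58-fold (-2.92, SE 0.56, adjusted p = 0.00156) and Cyp11a1 5.97-fold (-2.58, SE 0.41, adjusted p = 0.000363). Star fell by 1.04 (SE 0.29, adjusted p = 0.0168) and Hsd3b1 by 0.98 (SE 0.29, adjusted p = 0.0200), and Hsd17b3 had -0.78 (SE 0.34, adjusted p = 0.0963). Cyp11a1 and Cyp17a1 passed the stricter rule, as did 1.42% of genes. The median of the members was -1.81 against -0.08 for all genes. Star was not called without 22.5 dpp replicate 1 (adjusted p = 0.0614), 22.5 dpp replicate 3 (0.0678) or D16 replicate 1 (0.110), nor was Hsd3b1 without D16 replicate 2 (0.178). Without that library Hsd3b6 was at -3.78 (adjusted p = 0.00400). With the left-out 6.5 dpp library in the fit, only Cyp11a1 and Cyp17a1 were called.

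At D30 against 36.5 dpp all 6 genes were called lower, where 35.0% of all genes were called lower and 32.4% higher. Cyp17a1 fell 37.6-fold (log2 -5.23, SE 0.30, adjusted p = 7.30e-09) and Hsd17b3 27.6-fold (-4.79, SE 0.32, adjusted p = 1.09e-08). Hsd3b6 fell 9.90-fold (-3.31, SE 0.46, adjusted p = 9.65e-06) and Cyp11a1 8.24-fold (-3.04, SE 0.34, adjusted p = 1.26e-06), and these 4 passed the stricter rule, as did 21.3% of genes. Star fell by 0.76 (SE 0.26, adjusted p = 0.0155) and Hsd3b1 by 0.84 (SE 0.26, adjusted p = 0.00758) on TMM-scaled libraries, although their CPM overlapped, and with libraries scaled by their totals alone neither was called (Star -0.12, adjusted p = 0.680, and Hsd3b1 -0.20, adjusted p = 0.526). Star was also not called without 36.5 dpp replicate 2 (adjusted p = 0.0854), nor Hsd3b1 without 36.5 dpp replicate 1 (0.129), and Hsd3b6 was at -3.96 (adjusted p = 6.12e-07) without D30 fresh replicate 3. With fresh replicate 1 of 6.5 dpp put into the fit, Star (adjusted p = 0.0598) and Hsd3b1 (0.138) were not called. Neither was called in a fit of only the groups compared (0.0503 and 0.0804). Scaling by totals put the median of all genes at 0.60 in this comparison, against -0.03 with TMM, and put Cyp17a1 at -4.59, Hsd17b3 at -4.15, Hsd3b6 at -2.65 and Cyp11a1 at -2.39, all still called, and 65.8% of its calls were then higher, against 48.0% with TMM and 40.0% with DESeq2's median-of-ratios factors. Between these groups the spermatid sum was 16421 to 21335 CPM at 36.5 dpp and 346 to 1635 CPM at D30, and the Sertoli marker sum was 678 to 893 CPM and 5439 to 9213 CPM. Their part in these differences was not tested.

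**Figure D3:**
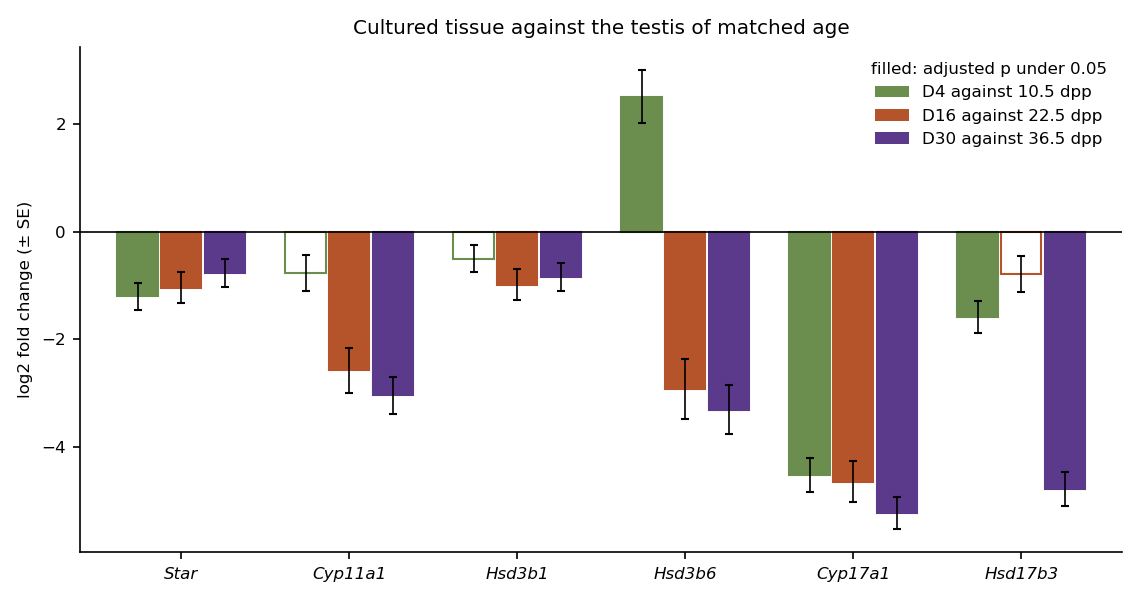
Log2 fold change of each of the 6 genes in culture against the testis of matched age (bars from 0, with error bars of 1 SE) at D4, D16 and D30; filled bars were called at an adjusted p under 0.05 and open bars were not. Cyp17a1 lay at -4.52, -4.64 and -5.23, whereas Hsd3b6 was above 0 at D4 and below it at D16 and D30.

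The share of higher among all calls moved by over 10 percentage points with the scaling in further comparisons. From TMM to scaling by totals it went from 60.7% to 50.1% at D4 against 10.5 dpp, from 54.3% to 68.0% at D16 against 22.5 dpp, from 59.1% to 69.2% at 10.5 against 6.5 dpp, from 54.6% to 43.8% at 22.5 against 10.5 dpp and from 45.9% to 27.9% at 36.5 against 22.5 dpp. With the median-of-ratios factors it was 43.9% at D16 against 22.5 dpp and 56.0% at 36.5 against 22.5 dpp. The median log2 difference of all genes at 36.5 against 22.5 dpp was -0.13 with TMM, -0.63 with totals and 0.07 with the median-of-ratios factors, and at 22.5 against 10.5 dpp it was 0.06, -0.23 and 0.12.

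Whether the culture effect itself changed with time was tested as a difference of differences. From D4 to D16, the effect on Hsd3b6 dropped by 5.44 log2 units (SE 0.75, adjusted p = 0.000388) and that on Cyp11a1 by 1.81 (SE 0.51, adjusted p = 0.0340). These were 2 lower calls and no higher one, where 4.36% of all genes were called lower and 5.26% higher. Of those calls over all genes 54.7% were higher, against 73.2% with scaling by totals and 46.3% with the median-of-ratios factors. Hsd3b6 passed the stricter rule, as did 0.431% of genes. The Cyp11a1 call was lost without D4 replicate 2 or 3, either D16 library, 10.5 dpp replicate 1 or 3, or 22.5 dpp replicate 1 or 3 (adjusted p 0.0752 to 0.102), and with libraries scaled by their totals (-1.56, adjusted p = 0.0581), and Hsd3b6 was at -6.30 (adjusted p = 0.00101) without D16 replicate 2. From D4 to D30, Hsd3b6 dropped by 5.82 (SE 0.68, adjusted p = 1.01e-05), Hsd17b3 dropped by 3.20 (SE 0.43, adjusted p = 2.79e-05) and Cyp11a1 dropped by 2.27 (SE 0.48, adjusted p = 0.00109), with 20.7% of genes called lower, 25.8% higher and 9.52% past the stricter rule, which Hsd3b6 and Hsd17b3 passed. Higher ones made up 55.5% of the calls over all genes, against 78.9% with totals, where the median of all genes stood at 0.73, and 45.6% with the median-of-ratios factors. Scaling by totals put these 3 at -5.08, -2.47 and -1.54, all still called, and Hsd3b6 was at -6.47 without D30 fresh replicate 3. For Cyp17a1 the differences were -0.12 (adjusted p = 0.900) at D16 and -0.71 (adjusted p = 0.153) at D30, and scaling by totals turned both above 0. For Star they were 0.16 and 0.44, and the latter was called with libraries scaled by totals (1.17, adjusted p = 0.00746).

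Explants were started at 6.5 dpp, and against the 6.5 dpp libraries, 3 of 4 of which came from frozen testes while the D4 explants were fresh, D4 showed 3 lower members and 1 higher, where 10.1% of all genes were called lower and 10.8% higher. Cyp17a1 fell 11.9-fold (log2 -3.57, SE 0.30, adjusted p = 2.18e-07), Hsd17b3 8.31-fold (-3.05, SE 0.31, adjusted p = 1.84e-06) and Star by 1.31 (SE 0.24, adjusted p = 0.000916). Hsd3b6 rose 35.2-fold (5.14, SE 0.55, adjusted p = 3.16e-06). Cyp11a1 (-0.45, adjusted p = 0.340) and Hsd3b1 (-0.41, adjusted p = 0.233) were not called. Hsd3b6, Cyp17a1 and Hsd17b3 passed the stricter rule, as did 2.41% of genes. With fresh replicate 1 put back, Hsd3b6 was no longer called (2.08, adjusted p = 0.170), and against the 1 fresh 6.5 dpp library alone Hsd17b3 was at -2.42, a value whose adjusted p (0.000206) takes the spread from the other groups.

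Between D4 and D16, Hsd3b6 rose by 2.01 log2 units (SE 0.49, adjusted p = 0.00559), while Hsd3b1 fell by 1.16 (SE 0.29, adjusted p = 0.00585) and Hsd17b3 by 1.36 (SE 0.35, adjusted p = 0.00738). Here 18.4% of all genes were called higher, 5.48% lower and 7.86% past the stricter rule, which no member passed. Cyp11a1 (-1.01, adjusted p = 0.0669), Star (0.14) and Cyp17a1 (0.01) were not called. The Hsd3b6 call was lost without D16 replicate 2 (1.15, adjusted p = 0.141), and those of Hsd3b1 (adjusted p = 0.0567) and Hsd17b3 (0.0834) without D16 replicate 1, whereas Cyp11a1 was called without D4 replicate 1 (-1.28, adjusted p = 0.0271). Between D16 and D30, Star rose by 1.25 (SE 0.28, adjusted p = 0.0294) and Cyp17a1 by 1.31 (SE 0.31, adjusted p = 0.0387), where 1.46% of genes were called higher and 0.332% lower, and no member passed the stricter rule, which 0.00519% of genes passed. Hsd17b3 (-0.86, adjusted p = 0.225), Hsd3b1 (0.78, adjusted p = 0.195), Cyp11a1 (0.60, adjusted p = 0.610) and Hsd3b6 (-0.61, adjusted p = 0.729) were not called. With fresh libraries only, Hsd17b3 was at -1.07. Star was not called without D16 replicate 1, D16 replicate 2 or D30 fresh replicate 1 (adjusted p 0.0642 to 0.153), nor Cyp17a1 without either D16 library or any one fresh D30 library (0.0594 to 0.364).

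Ratios within a library do not depend on the scaling and are given as a description. Hsd3b6 made up 0.0417% ± 0.0136 (SD, n = 4) of the Hsd3b1 and Hsd3b6 counts at 6.5 dpp, 0.232% ± 0.0949 at 10.5 dpp, 39.7% ± 0.680 at 22.5 dpp and 26.6% ± 1.01 at 36.5 dpp. In culture its share was 1.89% ± 0.196 at D4, 14.5% ± 8.76 at D16 and 5.85% ± 2.97 at D30. Every cultured library thus held a share above those of 6.5 and 10.5 dpp and below those of 22.5 and 36.5 dpp. For each Cyp11a1 count there were 1.14 ± 0.381, 1.74 ± 0.189, 1.08 ± 0.0623 and 1.93 ± 0.00460 Cyp17a1 counts at the 4 ages in order, and 0.132 ± 0.0259, 0.264 ± 0.0749 and 0.452 ± 0.0810 at D4, D16 and D30. The culture stages did not overlap with one another or with any age. Star per Cyp11a1 count was 0.263 ± 0.0607 at 36.5 dpp and 1.43 ± 0.476 at D30. Hsd3b1 per Cyp11a1 count was 0.465 and 0.535 in the 36.5 dpp libraries and 2.58 ± 0.827 at D30. In both ratios D30 did not overlap with 36.5 dpp but did overlap with younger testes. Star per Cyp11a1 count was 0.532 to 0.846 at 6.5 dpp and 0.815 to 1.86 at D30. Hsd3b1 per Cyp11a1 count was 1.89 to 2.49 at 6.5 dpp, 1.76 to 2.07 at 10.5 dpp and 1.61 to 3.44 at D30.

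**Figure D4:**
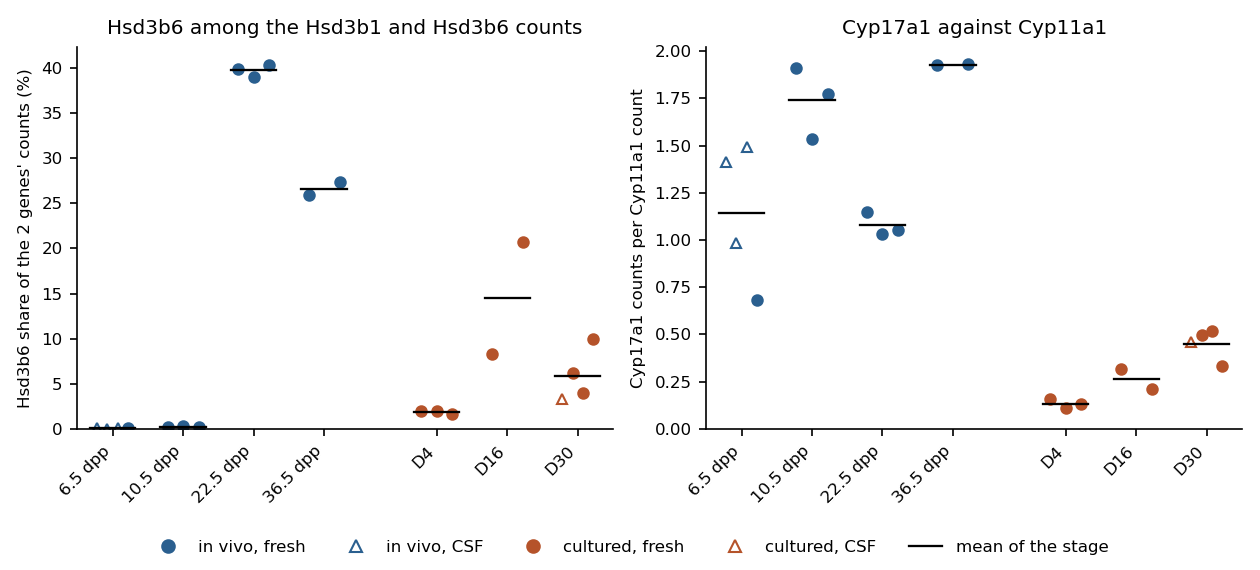
Hsd3b6 as a percentage of the Hsd3b1 and Hsd3b6 counts (left) and Cyp17a1 counts per Cyp11a1 count (right) in every library by stage; points are libraries, open triangles CSF tissue, and lines stage means. The Hsd3b6 share had means of 39.7% at 22.5 dpp and 14.5% at D16, and every cultured library lay below every in vivo library in Cyp17a1 per Cyp11a1 count.

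The tissue's Leydig identity was checked with 5 markers outside the members (Insl3, Lhcgr, Nr5a1, Ptgds and Prlr). Their summed level was 333 to 341 CPM at 36.5 dpp and 259 to 405 CPM at D30, and no marker of the 5 was at 0 in any stage. The make-up of the sum differed: Insl3 gave 165 ± 12.0 CPM of it at 36.5 dpp (n = 2) and 13.6 ± 11.1 CPM at D30 (n = 4), while Nr5a1, which Sertoli cells also make, gave 41.2 ± 4.04 and 194 ± 57.5 CPM. Insl3, a peptide hormone of mature Leydig cells, had a median of 6.28 CPM at 6.5 dpp, 6.71 at 10.5 dpp, 20.6 at 22.5 dpp and 165 at 36.5 dpp, and of 1.17, 3.90 and 11.2 CPM at D4, D16 and D30. It fell in culture against each matched age, with log2 fold changes of -2.39 (adjusted p = 0.0330), -2.48 (adjusted p = 0.0255) and -4.25 (adjusted p = 2.41e-05). Of the 5 markers, none rose and 1 fell at D4, 2 rose and 2 fell at D16, and 1 rose and 3 fell at D30. Over all genes, 4.92% were called higher and 3.18% lower at D4, 14.0% and 11.8% at D16, and 32.4% and 35.0% at D30. The 4 adrenal cortex markers, which would mark adrenal-like cells, summed to at most 8.03 CPM in any stage, with none higher and 2 lower at D4, 1 and 1 at D16, and 1 and 2 at D30.

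Upstream of the enzymes, the list of receptors and transcription factors had 9 genes tested. At D4 1 was higher and none lower, at D16 4 and 1, and at D30 6 and 3, beside the shares of all genes given for those comparisons. Lhcgr, the LH receptor, had log2 differences of -0.01 and -0.90 at D4 and D16, not called, and fell by 1.45 at D30 (SE 0.47, adjusted p = 0.0110). In CPM the Lhcgr libraries of these ages overlapped, at 5.30 to 28.7 CPM at D30 against 21.3 and 21.9 CPM at 36.5 dpp. Nr5a1, the nuclear receptor that activates most of these genes, had -0.06 at D4, not called, and rose by 0.95 at D16 (adjusted p = 0.0106) and 1.59 at D30 (adjusted p = 3.73e-05). Nr0b1, a repressor of steroidogenic transcription, was higher at all 3 stages, by 0.87, 0.91 and 2.22. Sertoli markers were also higher, 1 of 7 at D4 and 6 of 7 at D16 and at D30. Their part in the whole-tissue values of Nr0b1 and Nr5a1 was not tested. Prlr, the prolactin receptor, fell by 1.81 at D16 and fell by 1.66 at D30, and Nr4a1, an LH-responsive nuclear receptor, fell by 2.50 at D30.

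Cholesterol supply had 8 genes tested, with 2 higher and none lower at D4, 3 and 0 at D16, and 6 and 1 at D30, where 32.4% of all genes were called higher and 35.0% lower. At D4 the shares over all genes were 4.92% and 3.18%, and at D16 14.0% and 11.8%. Soat1, which esterifies cholesterol for storage, was higher by 0.85 at D4 (adjusted p = 0.0114) and 1.64 at D30 (adjusted p = 1.00e-05), and had -0.15 at D16, not called. Lipe, the hormone-sensitive lipase that frees stored cholesterol, was lower by 3.70 at D30 than at 36.5 dpp (adjusted p = 2.37e-07). Its medians were 362 CPM at 36.5 dpp and 39.1 CPM at D30. Its libraries read 9.59 to 21.1 CPM at 6.5 dpp, 19.1 to 24.1 at 10.5 dpp and 25.6 to 35.4 at 22.5 dpp, against 22.3 to 71.6 at D30. D30 thus lay below 36.5 dpp only, not below the younger ages. Spermatid markers also rose from 22.5 to 36.5 dpp, and their part in the Lipe values was not tested. The 5 redox partners of the P450 enzymes had no call at D4 or D16, and 3 higher and 1 lower at D30. The lower one was Fdx1, the ferredoxin that hands electrons to CYP11A1, which fell by 1.75 at D30 (SE 0.35, adjusted p = 0.000293), with medians of 88.8 CPM at 36.5 dpp and 41.0 CPM at D30.

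Of 9 tested genes for other steroid converting enzymes, none was higher and 1 lower at D4, 3 and 2 at D16, and 4 and 2 at D30. The shares over all genes were 4.92% higher and 3.18% lower at D4, 14.0% and 11.8% at D16, and 32.4% and 35.0% at D30. Hsd17b1, which reduces estrone to estradiol and can act on androstenedione in mice, had medians of 89.4, 16.9, 0.569 and 0.547 CPM at the 4 ages and 7.78, 5.76 and 2.74 CPM in culture. It was higher in culture by 3.26 at D16 (adjusted p = 3.96e-05) and 1.73 at D30 (adjusted p = 0.00181). Cyp19a1, the aromatase, fell by 2.84 at D30 (adjusted p = 7.69e-06), and Sult1e1, the estrogen sulfotransferase, fell by 2.80 (adjusted p = 2.07e-05). Srd5a1, a 5-alpha-reductase, fell by 1.54 at D16 (adjusted p = 0.000282). Of 7 listed Hsd3b paralogs only Hsd3b2 could be tested, and it fell at D30 (adjusted p = 0.00243), from 0.952 and 1.34 CPM at 36.5 dpp to at most 0.126 CPM. Its coding sequence shared 94.37% of bases with that of Hsd3b6, with an identical run of 141 bases, longer than the reads. Whether reads of Hsd3b6 entered the Hsd3b2 counts was not tested.

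**Figure D5:**
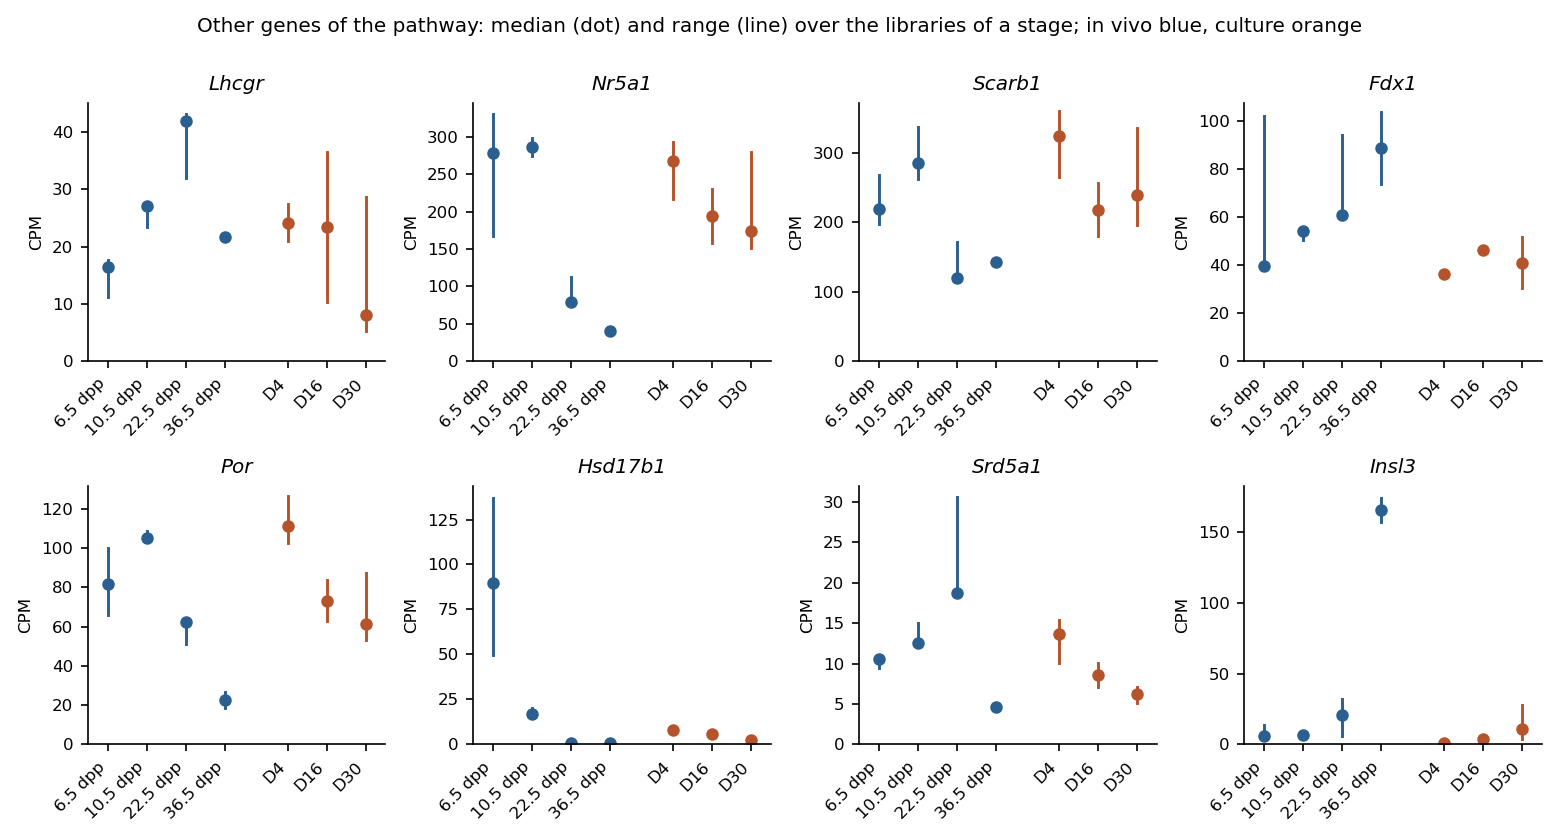
Levels (CPM, axes from 0) of 8 listed genes of the pathway outside the members, as the median (dot) and range (line) over the libraries of each stage, in vivo in blue and culture in orange. Insl3 had a median of 165 CPM at 36.5 dpp and 11.2 CPM at D30, and Nr5a1 had higher medians in culture at D16 and D30 than at 22.5 and 36.5 dpp.

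Markers of other cell types moved with the same comparisons, and their part in the members' values was not tested. At D4, D16 and D30, higher and lower calls numbered 0 and 0, 1 and 0, and 3 and 0 of 3 for Leydig progenitor and interstitial markers, 1 and 0, 6 and 1, and 6 and 0 of 7 for Sertoli cells, and 0 and 1, 0 and 0, and 4 and 0 of 5 for peritubular myoid cells. They numbered 2 and 1, 4 and 0, and 4 and 1 of 5 for endothelium, 0 and 4, 0 and 1, and 4 and 0 of 5 for macrophages, 0 and 0, 0 and 1, and 0 and 2 of 4 for spermatocytes, and 0 and 0, 0 and 0, and 0 and 5 of 5 for spermatids. Both red blood cell markers tested were lower at each stage. Beside these counts, 4.92% of all genes were called higher and 3.18% lower at D4, 14.0% and 11.8% at D16, and 32.4% and 35.0% at D30. The interstitial sum was 552 to 572 CPM at 10.5 dpp and 32.3 to 33.6 CPM at 36.5 dpp in vivo, and 387 to 431 CPM at D4 and 198 to 330 CPM at D30.

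Fresh and frozen tissue could be set side by side at 6.5 dpp and D30, with 1 library on 1 side each time and so with no test. At 6.5 dpp the fresh library lay within the range of the 3 CSF libraries in Star and Hsd3b1, 1.14-fold above it in Cyp11a1, 1.33-fold above it in Hsd3b6, and 1.24-fold and 1.14-fold below it in Cyp17a1 and Hsd17b3. At D30 the CSF library lay within the range of the 3 fresh libraries in Star and Hsd3b1, 1.05-fold below it in Cyp11a1, 1.12-fold in Cyp17a1 and 1.23-fold in Hsd3b6, and 1.41-fold above it in Hsd17b3. CSF replicate 3 at 6.5 dpp, the shallowest library, was the highest of its stage in Star, Cyp17a1 and Hsd17b3.

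The genes whose level across the 21 libraries was most like each member, by Pearson's r of log2 CPM over 15768 genes, are given as a description, since libraries of 1 stage share their age and culture. They were Cyp21a1 (r = 0.801), Ism2 and Map3k7cl for Star, Ass1 (0.861), Kcnab2 and Car4 for Cyp11a1, and Klhdc8a (0.878), Angptl1 and Paqr6 for Hsd3b1. For Hsd3b6 they were Tmem91 (0.970), Asb1 and Mzf1, for Cyp17a1 Cdhr5 (0.909), Car4 and Ass1, and for Hsd17b3 Dis3 (0.941), Ripor2 and Abcg2. A like course did not mean a like span. Tmem91 went from 0.996 ± 0.254 CPM at 6.5 dpp to 7.94 ± 0.783 at 22.5 dpp. Cyp21a1, the adrenal 21-hydroxylase, had 2.78 ± 1.71 CPM at 6.5 dpp and 2.39 ± 0.923 at D30, but 0.110 ± 0.0146 at D4 and 0.105 ± 0.00616 at D16. Among the members, Cyp11a1 and Cyp17a1 were most alike (r = 0.867) and Hsd3b1 and Hsd3b6 least (r = -0.576).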

How the data were processed

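The authors sequenced poly(A) RNA from whole testes and explants as stranded 50-base reads, which were demultiplexed with bcl2fastq 2.17.1.14, aligned to GRCm38 with STAR 2.7.3a and counted with HTSeq 0.12.4. Its strand setting is not given in the sources used here, and the submitters' notes also name DESeq2. The deposited values were raw counts per Entrez gene in 23 columns. RefSeq symbols matched 27373 of 27466 IDs, and genes without a symbol held 0.0207% of counts. Of the columns, 1 exact copy and 1 library that went against its label were left out, which left 21 libraries in 7 groups.

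Here, counts were filtered with filterByExpr, scaled by TMM and tested with edgeR 4.0.16 (quasi-likelihood F test, 1 fit over all groups, Benjamini-Hochberg adjustment over 19255 genes), in R 4.3.3. Fresh and CSF libraries were pooled within a stage, as the study did. All 6 members were named, with the 3 most alike genes of each (log2 of CPM plus 0.5, mean of at least 1 CPM). The members, the 15 gene lists and the tests were chosen with earlier results of these data known. Scripts were tested on simulated data. Alternatives were other scalings, no filter, DESeq2 1.42.0, fresh libraries only, the left-out library included, a replicate block, separate fits per comparison, the stricter rule and leaving out each library. Coding sequences came from GENCODE vM21 on GRCm38 and promoters from RefSeq on GRCm38.p6. The values of 1 gene of the cholesterol supply list are not reported here.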

Additional observations from a re-analysis of the deposited data

Results flagged for a closer look

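The D30 fresh replicate 3 library stood apart from the other 3 D30 libraries in 2 of the 6 genes, with 150.5 CPM of Cyp11a1 against 54.9 to 62.5 CPM and 26.6 CPM of Hsd3b6 against 6.45 to 8.38 CPM. Its gap was 0.920 of the whole range in Cyp11a1 and 0.905 in Hsd3b6, over the 95% critical value of Dixon's test for groups of 4. Of 12 groups of 4 libraries examined (6 genes at 6.5 dpp and at D30), 2 went past it, and chance gives about 1 in 20. Both came from the same library, so they are not separate cases. It was also the highest D30 library in Star (122.7 CPM), Hsd3b1 (241.8 CPM) and Cyp17a1 (50.4 CPM), without passing the critical value, but not in Hsd17b3 (3.65 CPM). Without this library, both genes were still lower at D30 than at 36.5 dpp.

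The culture effect, set against the matched age, differed between stages in 3 genes by edgeR's test of the difference. Between D4 and D16 it differed by -5.44 log2 units for Hsd3b6 (adjusted p = 0.000388) and by -1.81 for Cyp11a1 (adjusted p = 0.0340). Between D4 and D30 it differed by -5.82 for Hsd3b6 (adjusted p = 1.01e-05), -3.20 for Hsd17b3 (adjusted p = 2.79e-05) and -2.27 for Cyp11a1 (adjusted p = 0.00109). The 2 sets of differences share the D4 and 10.5 dpp libraries.

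In the left-out library labelled 6.5 dpp fresh replicate 1, Hsd3b6 had 267 counts (4.56 CPM), against 0.0973 to 0.188 CPM in the other 6.5 dpp libraries and 10.2 and 27.9 CPM at D16. Its Star was 37.8 CPM, Cyp11a1 26.7, Hsd3b1 46.6, Cyp17a1 8.04 and Hsd17b3 5.22 CPM, each below every other 6.5 dpp library.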

How the results depend on the processing

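Over 1050 values by gene, comparison and setting, 907 kept their direction and their side of the threshold, 104 lost a call, 15 gained one and 24 changed sign. With 6.5 dpp fresh replicate 1 included, the number of members called went from 4 to 1 at D4 against 10.5 dpp, from 5 to 2 at D16 against 22.5 dpp, from 4 to 2 at 22.5 against 10.5 dpp, and to 0 at 10.5 against 6.5 dpp (from 2), D16 against D4 (from 3), D30 against D16 (from 2) and in the difference between the culture effects at D16 and D4 (from 2). Under the stricter rule these counts were 1, 2, 2, 0, 0, 0 and 1, and it was 1 at 36.5 against 22.5 dpp, where 4 were called. Fresh libraries only, and a fit of only the groups compared, each gave 0 at 10.5 against 6.5 dpp, and the latter also 0 at D30 against D16. Scaling by totals gave 2 at 36.5 against 22.5 dpp and 1 for the difference at D16. The cause was not tested. Leaving out 1 library gave 4 called members each time at D4 against 10.5 dpp and against 6.5 dpp, 4 to 5 at D16 against 22.5 dpp, 5 to 6 at D30 against 36.5 dpp, 0 to 2 at 10.5 against 6.5 dpp, 2 to 4 at 22.5 against 10.5 dpp, 3 to 5 at 36.5 against 22.5 dpp, 1 to 4 at D16 against D4, 0 to 2 at D30 against D16, 1 to 2 for the difference at D16 and 3 for that at D30.

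No pairing by replicate number held across the groups, and the correlations below cannot settle whether any exists. Deviations of same-numbered libraries correlated at 0.203, 0.0268 and -0.00830 between D4 and 10.5 dpp, and at 0.0107, 0.0732 and 0.118 between 22.5 and 10.5 dpp. With 2 shared numbers they correlated at 0.525 and 0.661 between D16 and 22.5 dpp, 0.0935 and 0.0806 between 36.5 and 22.5 dpp, and -0.226 and -0.472 between D30 and 36.5 dpp. They were 0.375 and -0.564 between D30 and D16, and -0.0938 and 0.0111 between D16 and D4. In a group of 2 libraries the deviations mirror each other, so these values are not separate evidence. Not every library correlated best with its own number. A replicate block left 1 of 2 calls at D30 against D16 and moved no other count of members called by over 1.5 times.

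None of the values that changed sign was called under the setting that turned it. With median-of-ratios factors and with DESeq2, Star was at 0.051 and 0.050 from 10.5 to 22.5 dpp. With scaling by totals, Cyp17a1 was at -0.18 from 10.5 to 22.5 dpp, -0.045 from D4 to D16, and 0.13 and 0.017 for the differences at D16 and D30, and Hsd3b1 was at 0.38 for the latter. The block put the Cyp17a1 difference at D16 at 0.065. With 6.5 dpp fresh replicate 1 included, Star was at 0.069 and Hsd3b6 at -0.42 from 6.5 to 10.5 dpp. Leaving out 1 library gave ranges across 0 for Star (-0.22 to 0.13) and Hsd3b1 (-0.056 to 0.18) from 6.5 to 10.5 dpp, Star (-0.18 to 0.21) from 10.5 to 22.5 dpp, Star (-0.15 to 0.38) and Cyp17a1 (-0.16 to 0.19) from D4 to D16, Hsd3b6 (-1.26 to 0.25) from D16 to D30, and Star (-0.13 to 0.40) and Cyp17a1 (-0.30 to 0.058) for the difference at D16.

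With 2 libraries at 36.5 dpp and at D16, the precision rests on few samples. Hsd3b6 at 6.5 dpp rests on 4 to 9 counts per library. On TMM-adjusted library sizes, 10 of 42 stage means moved by 1 SD or more. By Spearman's rank correlation in place of Pearson's, 1 of the 3 most alike genes was shared for Star, Cyp17a1 and Hsd17b3 and 2 for the others.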
